A study of Mus musculus with 30 samples.

Results

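The FGF-ERK feedback and target genes are 9 genes that are switched on by fibroblast growth factor (FGF) signaling and that in part restrain it: the Sprouty genes Spry1, Spry2 and Spry4, the Spred genes Spred1 and Spred2, Il17rd (also called Sef), the phosphatase gene Dusp6 and the transcription factor genes Etv4 and Etv5. They were chosen by name as known targets or inhibitors of FGF signaling, with earlier results of these data known. All 9 were found among the 50833 genes of the count table, 20569 of which are protein-coding genes of the autosomes. RNA was sequenced from forelimb buds, the outgrowths that form the front legs, of wild-type Swiss Albino mouse embryos. Pregnant females were injected once into the abdomen at E10.5 (embryonic stage in days) with DMSO (controls) or with Wnt-C59 (C59), which was dissolved in DMSO. Forelimb buds were collected 1, 6, 12, 18 or 24 h later, with 3 libraries for each of the 10 combinations. By the study's methods the controls received DMSO in buffered saline, whereas the solution of C59 also held methylcellulose and a detergent. The groups thus differed in vehicle as well, and its effect cannot be told apart from that of C59. C59 inhibits porcupine, the enzyme that WNT ligands need to leave the cell, so it blocks all WNT ligands of the embryo and not only those of the limb bud. The study's methods give single pairs of forelimb buds as the source of the RNA and describe the replicates of each condition and time point as embryos of several litters. The labels do not say which library came from which litter.

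FGF ligands made in the apical ectodermal ridge, the thickened rim of the limb bud, bind receptors on the underlying mesenchyme and activate RAS and, through a chain of kinases, ERK. ERK activity turns on the ETS factor genes Etv4 and Etv5, and the same signal induces inhibitors: DUSP6 removes the phosphates that activate ERK, SPRY and SPRED proteins act upstream of ERK, and IL17RD is a membrane protein that dampens signaling from FGF receptors. Expression of several of these genes is therefore used as a readout of FGF signaling in the limb bud, as the study did with Dusp6. WNT signaling is known to be needed for Fgf8 expression in the ridge.

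The libraries held 18188636 to 38974885 counts, and no value of the 9 genes rested on fewer than 273 counts. Levels are given as CPM (the counts of a gene divided by those of its library, on a fixed scale for all genes), scaled between libraries by the TMM method, and comparisons between genes as FPKM, which also divides by transcript length. Differences were tested with edgeR's quasi-likelihood test across all protein-coding autosomal genes, with p-values adjusted by Benjamini-Hochberg: a gene passed when its adjusted p was below 0.05, and it was called when in addition its log2 fold change was beyond 1 in size. Axin2, a direct WNT target, was measured as a check of the treatment. It passed lower in C59 already at 1 h (log2 fold change -0.19, edgeR adjusted p 0.0282), in 4 of 14 alternatives (range 0.0141 to 0.21). It was at 108, 118 and 104 CPM in DMSO and 29.0, 29.2 and 26.5 CPM in C59 at 6 h, 112, 110.1 and 110.2 against 38.9, 38.6 and 43.7 CPM at 12 h. Its difference did not pass at 18 h and 24 h (log2 fold changes -0.16 and -0.08, edgeR adjusted p 0.333 and 0.507). In 5 groups 1 library stood apart from the other two, with a chi-square per degree of freedom of 22.9 to 46.6 against them: DMSO 1 h replicate 1, DMSO 6 h replicate 1, DMSO 18 h replicate 1, C59 18 h replicate 3 and C59 24 h replicate 2. At 12 h this value was between 3.51 and 7.81 for every pair of replicates.

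Upstream sequences were taken from the RefSeq promoter table (GRCm38.p6), which matched 7 of the 9 genes with 8 entries. The 250 bases before the transcript start are shown for Dusp6, which had the highest level, and for Spry1 and Spry2, paralogs that differed in their response to C59 (below); for these 3 genes the RefSeq start is also the start of the annotated gene. Each is written 5′ to 3′ on the strand of the gene, and capitals mark GGAAG, the core letters of an ETS factor motif, or its reverse complement CTTCC.
Dusp6, chr10:99262981-99263230, plus strand: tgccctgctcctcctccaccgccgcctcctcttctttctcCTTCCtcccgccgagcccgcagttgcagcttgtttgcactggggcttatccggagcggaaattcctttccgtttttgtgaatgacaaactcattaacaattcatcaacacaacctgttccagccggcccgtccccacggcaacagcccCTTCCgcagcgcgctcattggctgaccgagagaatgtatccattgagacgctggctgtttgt
Spry1, chr3:37639697-37639946, plus strand: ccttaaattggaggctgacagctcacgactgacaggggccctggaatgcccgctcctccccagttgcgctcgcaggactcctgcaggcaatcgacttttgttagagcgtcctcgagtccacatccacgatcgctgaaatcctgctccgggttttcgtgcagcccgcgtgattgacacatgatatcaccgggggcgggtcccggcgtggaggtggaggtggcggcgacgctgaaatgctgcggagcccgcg
Spry2, chr14:105896820-105897069, minus strand: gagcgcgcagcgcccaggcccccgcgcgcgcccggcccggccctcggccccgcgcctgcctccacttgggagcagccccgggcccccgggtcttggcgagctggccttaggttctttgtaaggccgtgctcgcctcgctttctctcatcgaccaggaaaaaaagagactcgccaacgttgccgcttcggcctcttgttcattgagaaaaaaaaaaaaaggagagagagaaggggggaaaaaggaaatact

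The letters GGAAG or CTTCC occurred 2 times in the Dusp6 window, 206 to 210 and 58 to 62 bases before the start, and not in those of Spry1 and Spry2. They were also found 5 times for Spred2, once each for Spred1 and Il17rd, and 2 times for 1 of the 2 Etv5 starts. Of all 32851 promoters of the table, 64.1% held them, so the 5 members with a match among the 7 are a description of these windows only. The longer ETS motif CCGGAAG, which contains GGAAG, was in none of the 8 entries and in 6.91% of all promoters. The TCF/LEF letters CTTTGA, the motif of the WNT-responsive factors, were in none of the 8 and in 13.8% of all, both strands being searched. The letters TGACG, the core letters of a CREB factor motif, were found once, for Spred2, and in 17.8% of all promoters.

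The genes lie on 7 chromosomes (GRCm38), given as the first and last base of the annotated gene: Spred1 at chr2:117121374-117182279, Spry1 at chr3:37639947-37644598, Dusp6 at chr10:99263231-99267489, Spred2 at chr11:19924375-20024026, Etv4 at chr11:101769742-101785371, Il17rd at chr14:27038941-27107286, Spry2 at chr14:105891947-105896819, Etv5 at chr16:22381309-22439719, and Spry4 on chromosome 18.

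In control forelimb buds the order of levels was led by Dusp6 at every time point. At 12 h Dusp6 was at 67.1 ± 3.25 FPKM (SD, n = 3) and Etv5 at 28.5 ± 3.07, and each was apart from the next gene in all libraries. Spred2 (21.3 FPKM), Spred1 (21.1), Etv4 (20.8), Il17rd (18.9) and Spry2 (18.6) followed, and the ranges of neighbours in this order overlapped. Spry1 was at 16.1 ± 1.28 FPKM and Spry4 was lowest at 7.32 ± 0.29. In C59-treated forelimb buds at 12 h the order was different below Dusp6 (29.5 ± 1.00 FPKM): Spred1 (17.4) and Spry2 (16.1) came next, Etv5 was sixth with 10.7 ± 1.74, and Etv4 was eighth with 4.82 ± 0.33 FPKM, above only Spry4 with 2.48 ± 0.12. The plot of FPKM at 12 h shows both orders.

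**Figure D1:**
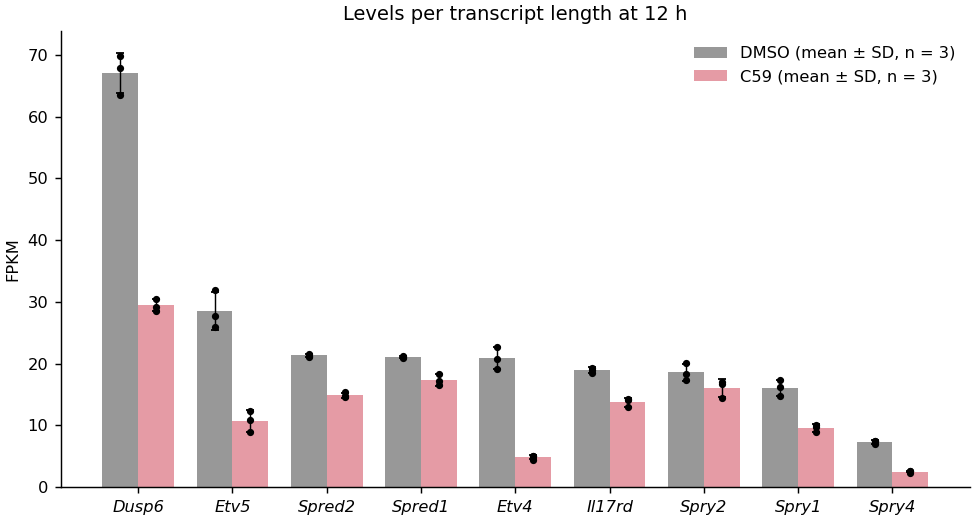
FPKM (y axis) of the 9 genes in DMSO and C59 forelimb buds 12 h after injection, as bars of the mean with SD (n = 3) and a point per library, ordered by the DMSO mean. Dusp6 fell from 67.1 to 29.5 FPKM and remained highest, whereas Etv4 went from 20.8 to 4.82 FPKM.

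The comparison of C59 with DMSO at each time point asks how the transcriptional output of FGF signaling followed the loss and return of WNT signaling. All 9 genes were lower in C59-treated forelimb buds at 12 h, and in every one of them the 3 C59 libraries lay below the 3 DMSO libraries. All 9 passed the test, where 25.5% of the 13324 genes tested passed with lower levels and 47.5% passed in either direction, and for 30% of genes the groups did not overlap in this direction. The 4 called genes were Etv4, Spry4, Etv5 and Dusp6, against 1.43% of all genes called lower. The median log2 fold change of the 9 was -0.83, beside 0.02 over all genes tested. In bulk tissue, fewer cells that express a gene and less RNA per cell cannot be told apart.

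Among the targets, Etv4, which encodes an ETS factor that carries the FGF signal to genes of outgrowth and anterior-posterior patterning, was at 75.3, 67.2 and 79.5 CPM in the DMSO libraries and at 15.5, 17.1 and 16.2 CPM in the C59 libraries at 12 h. This was 22.0% of the control mean, a log2 fold change of -2.18 ± 0.080 (SE, edgeR adjusted p 1.17e-07). Its paralog Etv5 was at 146, 135 and 168 CPM in DMSO and 60.9, 54.9 and 44.2 CPM in C59, with a log2 fold change of -1.49 ± 0.11 (edgeR adjusted p 3.26e-06). Both factors were thus lower in each C59 library than in any control, and the fitted difference between the groups was 4.54-fold for Etv4 and 2.82-fold for Etv5.

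Dusp6, the ERK phosphatase, was at 249, 230.0 and 255 CPM in DMSO and 104, 102 and 99.2 CPM in C59 at 12 h (log2 fold change -1.27 ± 0.051, edgeR adjusted p 1.64e-07). The C59 libraries lay close together and far below the controls. Spry4, an inhibitor that acts on RAS activation, was at 43.5, 46.1 and 46.5 CPM in DMSO and 14.9, 13.8 and 14.9 CPM in C59, or 32.0% of the control mean (log2 fold change -1.64 ± 0.069, edgeR adjusted p 2.12e-07). The fall of Spry4 was the largest among the inhibitors measured here.

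The other inhibitors fell less at 12 h. Spry1 was at 44.4, 46.6 and 50.5 CPM in DMSO and 24.1, 27.2 and 28.3 CPM in C59 (log2 fold change -0.83 ± 0.078, edgeR adjusted p 1.54e-05). Spred2, Il17rd and Spred1 reached 66.3%, 68.8% and 77.5% of their control means, with log2 fold changes of -0.59, -0.54 and -0.37. Spry2 was the least lowered of the 9: it was at 63.4, 56.2 and 59.2 CPM in DMSO and 51.3, 45.6 and 49.8 CPM in C59 (log2 fold change -0.29 ± 0.067, edgeR adjusted p 0.00492). Spry2 was also the only one of the 9 that did not pass at 12 h under every alternative tried: it failed in limma fits to log2(FPKM + 1) and log2(FPKM + 0.1) (adjusted p 0.0609 and 0.0603, range 0.00211 to 0.0609 over 14 alternatives).

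**Figure D2:**
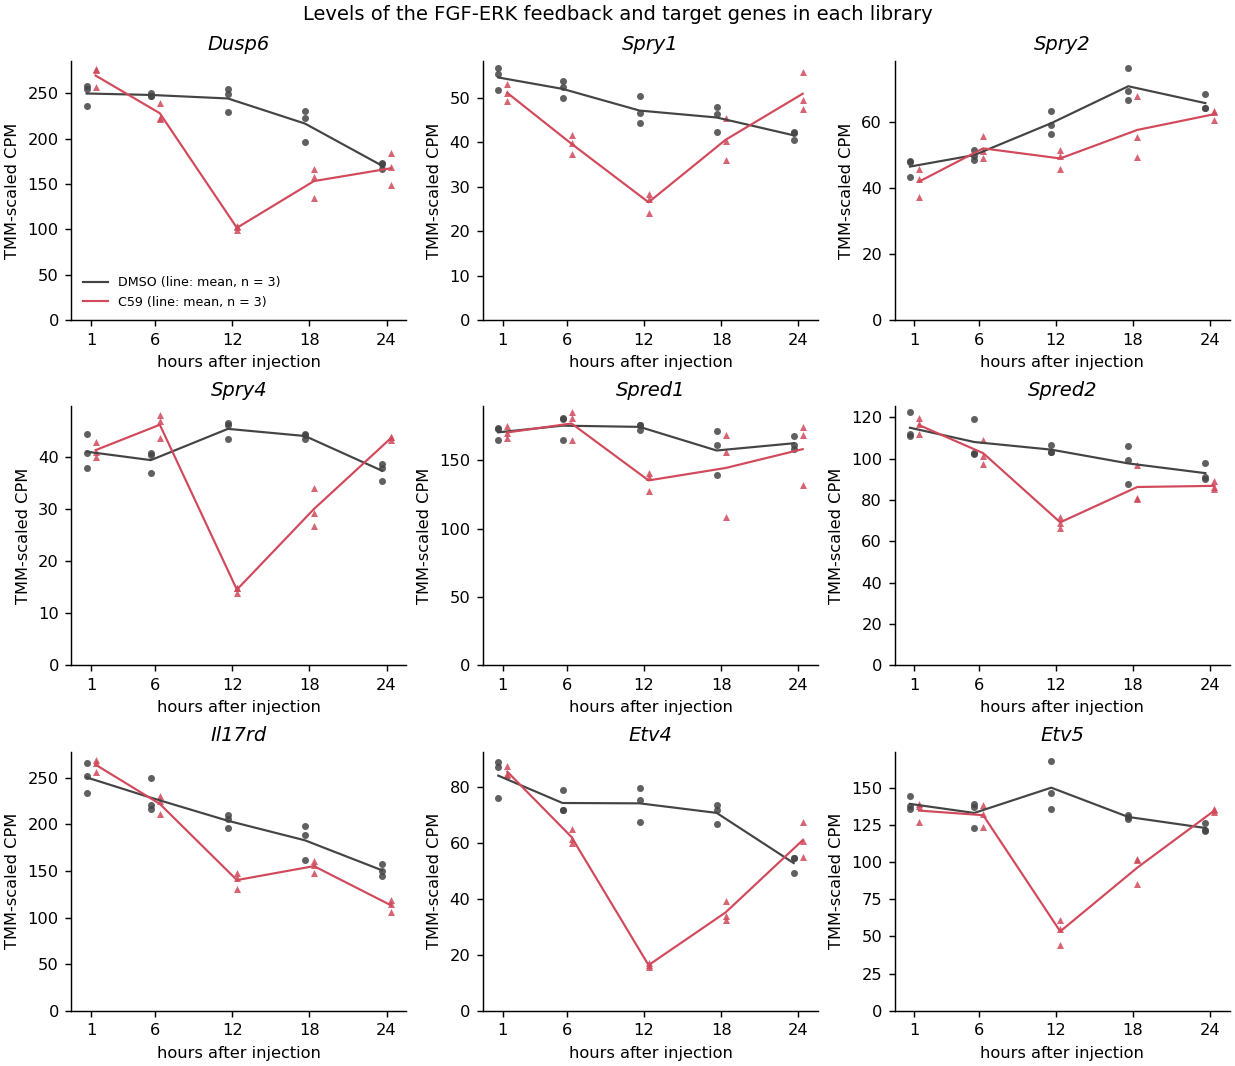
TMM-scaled CPM (y axis, from 0) of each gene in every library against hours after injection, with DMSO as grey circles, C59 as red triangles and lines through the means (n = 3). For Etv4 the gap is widest at 12 h, where it was at 15.5 to 17.1 CPM in C59 and 67.2 to 79.5 CPM in DMSO, and smaller at 24 h, where the Dusp6 and Spred1 libraries of both treatments overlap.

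Marker lists of the cell types in the limb bud moved with the treatment at 12 h, and their part in these differences was not tested. Markers are counted here when they passed, and over all genes 22% passed higher and 25.5% passed lower at 12 h. Of 8 surface ectoderm markers 6 were higher in C59, with a summed level of 369 to 515 CPM against 264 to 303 CPM in DMSO. Of 5 macrophage markers 4 were higher (30.1 to 32.9 against 17.0 to 19.7 CPM). So were 3 of 5 endothelial markers (328 to 362 against 262 to 285 CPM). Of 7 limb mesenchyme markers 6 were lower (1236 to 1293 against 1848 to 1950 CPM), whereas Tbx5 passed higher in C59 (log2 fold change 0.21). None of the markers of these 4 lists was at 0 in any library of 12 h. Limb mesenchyme markers had also been lower at 6 h (5 of 7, 1309 to 1412 against 1958 to 1977 CPM), when 11.4% of all genes passed lower. Of the apical ridge markers, which include Fgf8, 5 were tested: 3 were lower at 6 h (67.2 to 69.8 against 102 to 107 CPM), and 2 were lower and 1 higher at 12 h (72.0 to 85.6 against 87.4 to 97.5 CPM). The higher 1 at 12 h was Trp63, which is also among the 6 surface ectoderm markers counted above. Of 6 muscle progenitor markers 2 passed higher and 3 lower at 12 h. Of 3 crest and Schwann cell markers tested 2 passed higher. Tbx5, which marks forelimb as opposed to hindlimb mesenchyme, was at 188 to 330.1 CPM in the 30 libraries.

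At 6 h the picture among the 9 genes was mixed, although Axin2 was then at its lowest relative to controls. Etv4 and Spry1 were lower and Spry4 was higher in C59, and these 3 passed, where 19.6% of the 13100 genes tested passed; none was called, against 1.17% of all genes. The median log2 fold change of the 9 was -0.05 (0.01 over all genes). For Dusp6, Etv4 and Spry1 the C59 libraries lay below all DMSO libraries and for Spry4 above them, beside 19.3% and 17.5% of all genes.

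Spry1 was at 53.8, 52.4 and 50 CPM in DMSO and 40.0, 37.4 and 41.8 CPM in C59 at 6 h (log2 fold change -0.40 ± 0.061, edgeR adjusted p 0.000487), and it passed under all 14 alternatives. Etv4 was at 71.7, 78.9 and 71.8 CPM in DMSO and 64.7, 61.4 and 59.9 CPM in C59 (log2 fold change -0.26 ± 0.057, edgeR adjusted p 0.00546). Spry4 was at 40.8, 40.4 and 36.9 CPM in DMSO and 46.9, 43.6 and 48.0 CPM in C59 (log2 fold change 0.22 ± 0.063, edgeR adjusted p 0.0241). Spry4 was thus higher in every C59 library at 6 h and lower in every C59 library at 12 h. The libraries of 6 h also differed in embryo sex, read from the summed FPKM of 4 Y-linked genes, which was above 5 in 0 of 3 DMSO and 3 of 3 C59 libraries. With sex as a covariate in a fit of all 30 libraries, Etv4 no longer passed at 6 h (adjusted p 0.149, range 0.00197 to 0.149 over 14 alternatives). Spry4 did not pass in 5 of its 14 alternatives, among them both limma fits (adjusted p 0.0900 and 0.0863, range 0.021 to 0.105).

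Dusp6 was at 247, 248 and 251 CPM in DMSO and 223, 222 and 240 CPM in C59 at 6 h, and the difference did not pass (log2 fold change -0.13 ± 0.045, edgeR adjusted p 0.0632). Etv5, Spry2, Spred1, Spred2 and Il17rd had log2 fold changes between -0.08 and 0.05 at this time. At 1 h none of the 9 passed, where 2.75% of the 13076 genes tested did; 0 also passed in DESeq2, and Dusp6 alone had an unadjusted p under 0.05 (log2 fold change 0.11, p 0.0297, edgeR adjusted p 0.232).

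**Figure D3:**
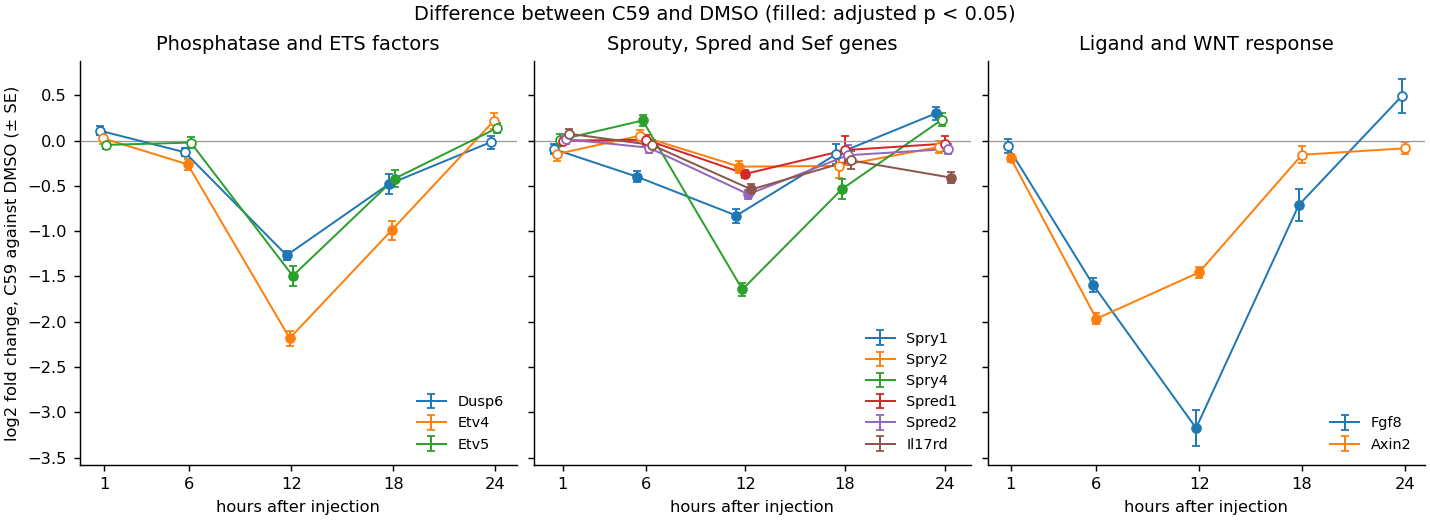
Log2 fold change of C59 against DMSO with its SE (y axis) against hours after injection, for Dusp6, Etv4 and Etv5, for the other 6 genes, and for Fgf8 and Axin2. Filled points have an adjusted p below 0.05: Axin2 was lowest at 6 h (-1.97) and Etv4 (-2.18), Spry4 (-1.64) and Fgf8 (-3.17) at 12 h.

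The change of the C59 effect between neighbouring time points was tested as an interaction, and each time point in the middle shares its libraries with the contrasts on both sides. From 1 h to 6 h the effect moved down for Spry1 (by -0.30 on the log2 scale), Etv4 (-0.29) and Dusp6 (-0.24), 3 of 9 beside 7.65% of all genes. These 3 were close to the threshold (edgeR adjusted p 0.0213 to 0.0327), and without C59 1 h replicate 3 or without C59 6 h replicate 2 none of the 9 passed. From 6 h to 12 h the effect moved down for all 9, beside 11.5% of all genes, by -1.92 for Etv4, -1.87 for Spry4, -1.47 for Etv5 and -1.14 for Dusp6, and by -0.52 to -0.34 for the other five. Over the same interval the effect on Axin2 moved up by 0.51 (edgeR adjusted p 0.000741), and that on Fgf8 moved down by -1.59.

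From 12 h to 18 h the effect moved up for 6 of 9 genes, beside 4.94% of all genes: Etv4 by 1.2, Spry4 by 1.11, Etv5 by 1.08, Dusp6 by 0.79, Spry1 by 0.68 and Spred2 by 0.44. Spred2 was close to the threshold (edgeR adjusted p 0.0407) and passed in 5 of 16 alternatives (range 0.012 to 0.105). It did not pass without any 1 of the 12 h libraries, or without DMSO 18 h replicate 1 or 2 or C59 18 h replicate 1. Spred1 (0.27), Il17rd (0.33) and Spry2 (0.01) did not pass. From 18 h to 24 h it moved up for Etv4 by 1.2, Spry4 by 0.76 and Etv5 by 0.55, 3 of 9 beside 3.53% of all genes, and without C59 18 h replicate 3 also for Spry1, Dusp6 and Spry2.

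**Figure D4:**
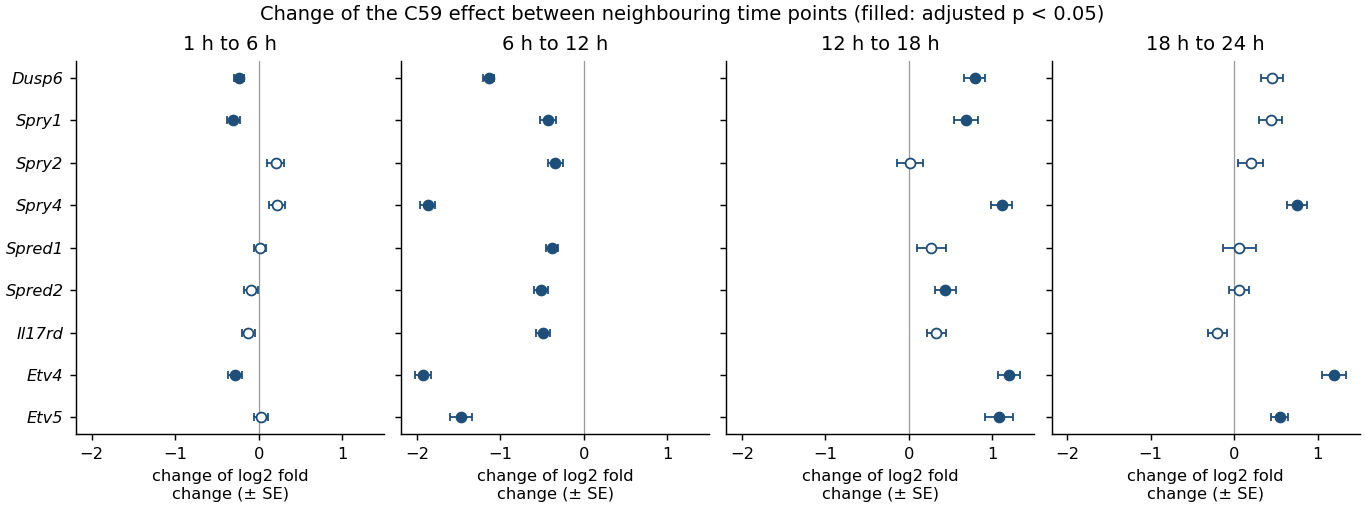
Change of the log2 fold change (C59 against DMSO) from one time point to the next, with SE (x axis), for each of the 9 genes; filled points have an adjusted p below 0.05. All 9 lie below 0 from 6 h to 12 h, led by Etv4 (-1.92) and Spry4 (-1.87), and the same 2 genes move up in both later intervals.

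At 18 h most of the genes were part of the way back, while Spry2 stayed at 81.3% of its control mean (82.1% at 12 h). Etv4, Spry4, Dusp6 and Etv5 were still lower in C59 and passed, 4 of 9 where 3.62% of the 13413 genes tested passed with lower levels, and none was called (1.29% of all genes). Etv4 was at 73.4, 66.8 and 71.6 CPM in DMSO and 33.7, 32.5 and 39.1 CPM in C59, 49.7% of the control mean (log2 fold change -0.99 ± 0.11, edgeR adjusted p 0.00194). Spry4, Dusp6 and Etv5 were at 68.2%, 70.7% and 73.9% of their control means, with log2 fold changes of -0.53, -0.48 and -0.42 and edgeR adjusted p of 0.0232, 0.0339 and 0.0368. For these 4 genes and for Il17rd (log2 fold change -0.22, adjusted p 0.217) every C59 library was below every DMSO library, as for 19.1% of all genes. The number that passed depended on single libraries: without DMSO replicate 1, which stood apart, Etv4 alone passed, as it also did without DMSO replicate 2, DMSO replicate 3 or C59 replicate 2. Without C59 replicate 3, which also stood apart, 5 of the 9 passed, Spry2 among them. Spred1 shows that library: it was at 169 and 156 CPM in C59 replicates 1 and 2 and at 109 CPM in replicate 3, against 139 to 171 CPM in DMSO. Surface ectoderm markers were again higher in C59 (6 of 8, summed level 383 to 441 against 288 to 312 CPM, none at 0), as were 3 of 5 macrophage markers (38.6 to 46.0 against 26.9 to 28.5 CPM). Lower in C59 were 3 of 7 limb mesenchyme markers (1408 to 1711 against 1728 to 1797 CPM) and 3 of 6 muscle progenitor markers (121 to 165 against 170.0 to 174 CPM). Over all genes 3.46% passed higher and 3.62% passed lower at 18 h. The part of these cell types was not tested.

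At 24 h Spry1 was higher and Il17rd lower in C59, 2 of 9 that passed where 6.44% of the 13675 genes tested did, and none was called (0.819% of all genes). Il17rd was at 157, 150.4 and 144 CPM in DMSO and 115, 106 and 119 CPM in C59, a log2 fold change of -0.41 ± 0.062 (edgeR adjusted p 0.00272) that passed under all 14 alternatives. Spry1 was at 42.0, 40.5 and 42.3 CPM in DMSO and 49.6, 55.9 and 47.5 CPM in C59 (log2 fold change 0.30 ± 0.076, edgeR adjusted p 0.0365), and it did not pass without C59 replicate 2, the highest of its group, or without any 1 of the DMSO libraries. Etv4, Etv5 and Spry4 were also higher in every C59 library than in any DMSO library, as Spry1 was, beside 12.8% of all genes, but these 3 did not pass (log2 fold changes 0.22, 0.14 and 0.23, edgeR adjusted p 0.157, 0.147 and 0.067). Il17rd, Spred2 and Spry2 were lower in every C59 library than in any DMSO library, beside 14.9% of all genes, and of these Il17rd passed. Dusp6 was at 172, 173 and 166 CPM in DMSO and 169, 184 and 149 CPM in C59, and these ranges overlapped. Surface ectoderm markers were still higher in C59 at 24 h (4 of 8, 438 to 493 against 360.1 to 369 CPM), as were 2 of 5 macrophage and 2 of 3 crest and Schwann cell markers. In turn 3 of 6 muscle progenitor markers were lower (175 to 200.1 against 208 to 235 CPM). Over all genes 2.88% passed higher and 3.56% passed lower at 24 h. The part of these markers was not tested.

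Control forelimb buds changed over the same day. Between 1 h and 24 h after DMSO, 6 of the 9 genes fell and Spry2 rose, 7 that passed where 59.3% of the 13580 genes tested did, and none was called (12% of all genes). Il17rd went from 251 ± 16.4 to 151 ± 6.50 CPM (log2 fold change -0.73), Etv4 from 83.9 ± 6.90 to 52.7 ± 3.18 CPM (-0.67) and Dusp6 from 250 ± 12.4 to 170.3 ± 3.6 CPM (-0.55). Spry2 went the other way, from 46.4 ± 2.79 to 65.7 ± 2.42 CPM (0.50, edgeR adjusted p 4.36e-06). Spry4 and Spred1 did not pass (log2 fold changes -0.14 and -0.07).

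Within C59-treated forelimb buds, 7 of the 9 genes rose between 12 h and 24 h and Il17rd fell further, 8 that passed where 40.5% of all genes did. Etv4 went from 16.3 ± 0.79 to 60.9 ± 6.21 CPM (log2 fold change 1.87 ± 0.096), Spry4 from 14.5 ± 0.61 to 43.6 ± 0.34 CPM (1.55 ± 0.081) and Etv5 from 53.3 ± 8.47 to 134.6 ± 0.83 CPM (1.30 ± 0.098). These 3 were called, beside 4.05% of all genes called higher. Il17rd went from 140.3 ± 8.89 to 113 ± 6.83 CPM (-0.34 ± 0.071, edgeR adjusted p 0.00248), a fall in the direction it also took in the controls.

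Paralogs were compared with one another by the log2 ratio of their CPM within each library, averaged over 6 h and 12 h, in an exact permutation test within time points (two-sided, 400 arrangements, n = 3 per group, 5 pairs, Benjamini-Hochberg adjusted over the 5). The ratio of Etv4 to Etv5 was lower in C59 by -0.46 (exact p 0.005, adjusted p 0.0125). That of Spry2 to Spry1 was higher by 0.50 (exact p 0.005, adjusted p 0.0125), with values of -0.11, -0.11 and 0.04 in DMSO and 0.48, 0.45 and 0.24 in C59 at 6 h, and 0.51, 0.27 and 0.23 against 1.09, 0.74 and 0.81 at 12 h. An exact p of 0.005 is the smallest this test can give. The ratio of Spred1 to Spred2 was higher by 0.15 (exact p 0.015, adjusted p 0.025), and it did not pass without DMSO 6 h replicate 2 (adjusted p 0.0583), C59 6 h replicate 1 or DMSO 12 h replicate 3 (both 0.05; range 0.0083 to 0.0583 over 14 alternatives).

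Spry4 changed its place among the Sprouty genes in opposite directions at the 2 times. Relative to Spry1 it was higher in C59 by 0.62 at 6 h and lower by -0.81 at 12 h, so that the average (-0.09) did not pass (exact p 0.645). Relative to Spry2 it was higher by 0.17 at 6 h and lower by -1.35 at 12 h (average -0.59, exact p 0.1, adjusted p 0.125). At a single time point 3 against 3 libraries cannot give an exact p below 0.10.

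**Figure D5:**
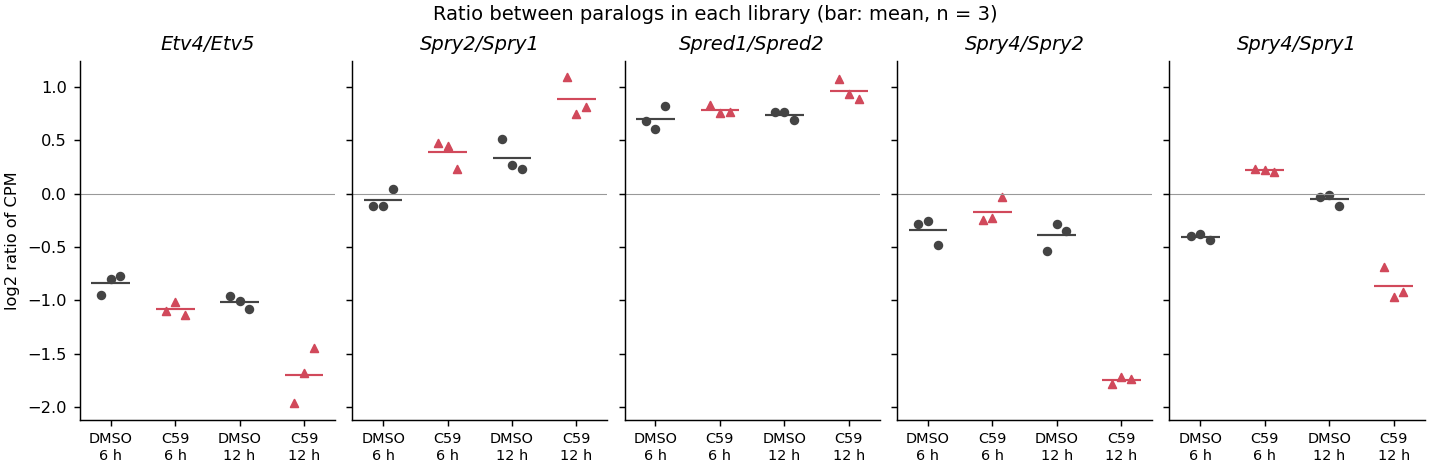
Log2 ratio of CPM between 2 paralogs (y axis) in every library of 6 h and 12 h, with DMSO as grey circles, C59 as red triangles and a bar at each mean (n = 3). The ratio of Spry4 to Spry2 is near -1.74 in the C59 libraries of 12 h and -0.39 in their controls, and that of Spry4 to Spry1 is above its controls at 6 h and below them at 12 h.

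The rest of the pathway was read from lists chosen by function. Of 9 FGF ligand genes 8 were tested at 6 h, 3 passed lower (Fgf4, Fgf8 and Fgf9) and none higher (median log2 fold change -0.33). Over all genes 11.4% passed lower and 8.2% higher at 6 h. Here and in the lists that follow, Fgf4, Fgf8, Fgfr4 and Dusp4 are named because they were called at 6 h or 12 h, and the other genes after their values were seen. Fgf8, the main ligand of the ridge, was at 36.4, 32.5 and 33.5 CPM in DMSO and 10.9, 11.2 and 11.9 CPM in C59 at 6 h (log2 fold change -1.59 ± 0.081, edgeR adjusted p 1.68e-08), and at 23.5, 19.4 and 24.6 against 2.89, 1.55 and 3.13 CPM at 12 h (-3.17 ± 0.20, edgeR adjusted p 1.47e-06). Fgf8 was thus 3.02-fold lower at 6 h. Of the members, Etv4 and Spry1 also passed lower at 6 h, while Dusp6 did not pass. The difference between Fgf8 and these genes was not tested. Fgf4, a second ridge ligand at low level, was at 1.2, 1.09 and 2.30 CPM in DMSO and 0.13, 0.049 and 0.23 CPM in C59 at 6 h (-3.41 ± 0.52, edgeR adjusted p 0.000429) and was below the count filter at 12 h. At 12 h 7 ligand genes were tested, of which 3 passed lower (Fgf8, Fgf9 and Fgf10) and 1 higher (Fgf7; median -0.28), beside 25.5% and 22% of all genes.

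Of 5 FGF receptor genes 1 passed at 6 h and 5 at 12 h, all higher in C59 (medians 0.07 and 0.54), beside 8.2% and 22% of all genes that passed higher. Fgfr4, the receptor gene called at 6 h, was at 4.49, 5.001 and 5.90 CPM in DMSO and 12.1, 10.9 and 9.78 CPM in C59 (log2 fold change 1.1 ± 0.14, edgeR adjusted p 0.00012). Of 22 genes of the cascade from adaptors to ERK and its kinase targets, 2 passed higher (Shc1 and Gab1) and 6 lower at 12 h, beside 22% and 25.5% of all genes, with log2 fold changes from -0.26 to 0.60 and a median of -0.08.

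Of 15 other genes known to respond to ERK, 14 were tested. At 6 h 5 passed lower (Dusp4, Dusp5, Flrt3, Myc and Ccnd1) and 2 higher (Errfi1 and Egr1), beside 11.4% and 8.2% of all genes (median -0.13). None of them was called at 6 h. Whether these genes changed through ERK or through another effect of C59 was not tested. At 12 h 7 passed lower and 1 higher (Errfi1), beside 25.5% and 22% of all genes (median -0.26). Dusp4, a second phosphatase of the family that includes Dusp6, was the one called: it was at 49.9, 40.1 and 49.6 CPM in DMSO and 20.7, 24.1 and 21.8 CPM in C59 at 12 h (log2 fold change -1.07 ± 0.098, edgeR adjusted p 1.26e-05). Unlike Dusp6, Dusp4 also passed at 6 h (-0.43 ± 0.061, edgeR adjusted p 0.000256), and at 18 h it was at 42.5, 40.9 and 43.8 CPM in DMSO and 45.6, 39 and 46.3 CPM in C59. The difference between these 2 genes was not tested.

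Over the 5 log2 fold changes, the genes most like a member were found by the root mean square (RMS) difference among 10579 genes with a mean of at least 5 CPM. For Dusp6 they included Aacs (0.120) and Ahcy (0.126), both nearer than its nearest member Etv5 (0.152). For Etv4 they included Mfsd2a (0.305) and Insig1 (0.334), while the nearest member, Spry4, was at 0.383. For Spry2 they were Mosmo (0.0411), Cdc27 (0.0413) and Gcfc2 (0.0449), and for Spred1 Serpine2 (0.035), Sf3a1 (0.0375) and Sfmbt1 (0.0379), where small differences are common because most genes changed little. Spry4 and Etv5, a pair named after the values were seen, were nearer to each other (0.147) than to any gene outside the 9, of which Psat1 was the nearest to Spry4 (0.310) and Cdc6 to Etv5 (0.180).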

How the data were processed

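Polyadenylated RNA of 30 mouse forelimb bud libraries was sequenced, and groups were taken from the sample labels. The deposited table of raw counts per gene was written by STAR (2.7.0e) after trimming with Cutadapt (1.16), with mapping to mm10; it holds autosomal genes only, and the strand of counting is not given in the sources used here. The FPKM values were computed by the authors with Cufflinks (2.2.1), and FPKM was used here for comparisons between genes, for embryo sex and in limma alternatives.

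Genes were matched to GENCODE M21 (50628 of 50833 matched). Counts of protein-coding autosomal genes were filtered with filterByExpr and tested per time point, on the 6 libraries compared, with edgeR 4.0.16 (TMM, quasi-likelihood F test, Benjamini-Hochberg); changes of the effect used an interaction term over 12 libraries. The procedure was tested on simulated data. CPM are TMM-scaled, log2 ratios of paralogs used a prior count of 2, and log2 of FPKM a pseudocount of 1 or 0.1. Alternatives were DESeq2 (1.42.0) and its size factors, no count filter, a replicate block, a fit of all 30 libraries, embryo sex, limma (3.58.1) on FPKM, and leaving out each library. Spry1 overlaps a gene on the other strand whose CPM was 0.499% of its own. Promoters were searched on both strands.

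The members and lists were chosen with earlier results of these data known. Named are the 9 members, Axin2, the FGF ligands, receptors and other ERK response genes called at 6 h or 12 h, and for Dusp6, Etv4, Spry2 and Spred1 the 3 genes nearest in RMS difference, of which some are not reported here. Precision is limited by 3 libraries per group.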

Additional observations from a re-analysis of the deposited data

Results flagged for a closer look

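The effect of C59 on a member differed between neighbouring time points, by the interaction test (edgeR, Benjamini-Hochberg adjusted), in 21 cases. From 1 h to 6 h the log2 fold change moved by -0.30 for Spry1, -0.29 for Etv4 and -0.24 for Dusp6. From 6 h to 12 h it moved by -1.92 for Etv4, -1.87 for Spry4, -1.47 for Etv5, -1.14 for Dusp6, -0.52 for Spred2, -0.49 for Il17rd, -0.43 for Spry1, -0.38 for Spred1 and -0.34 for Spry2. From 12 h to 18 h it moved by 1.2 for Etv4, 1.11 for Spry4, 1.08 for Etv5, 0.79 for Dusp6, 0.68 for Spry1 and 0.44 for Spred2. From 18 h to 24 h it moved by 1.2 for Etv4, 0.76 for Spry4 and 0.55 for Etv5.

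Of the 3 members that passed at 6 h, Spry4 alone went from a higher level in C59 (log2 fold change 0.22) to a lower one at 12 h (-1.64). Its rise at 6 h passed in 9 of 14 alternatives. Its change from 1 h to 6 h did not pass (edgeR adjusted p 0.146). Spry2 and Spred1 were also slightly above 0 at 6 h (0.05 and 0.01, not passing) and lower at 12 h.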

How the results depend on the processing

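All counts here are of the 9 members that passed unless said otherwise. Under the replicate block 1 member passed at 18 h (Etv4) and 1 at 24 h (Il17rd), in place of 4 and 2. The block changed no other count by over 1.5 times. Deviations of C59 and DMSO libraries with the same replicate number correlated at -0.133 to 0.103 over 15 pairs. These values gave no clear pairing by number, and whether libraries of the same number shared a litter was not tested. In DESeq2 5 members passed for the change from 18 h to 24 h, in place of 3. Leaving out 1 library at a time, the counts ran from 2 to 4 at 6 h, 1 to 5 at 18 h and 1 to 2 at 24 h, were 9 each time at 12 h and 0 each time at 1 h; for the changes of the effect they ran from 0 to 3 (1 h to 6 h), 8 to 9 (6 h to 12 h), 5 to 7 (12 h to 18 h) and 3 to 6 (18 h to 24 h). Called members ran from 0 to 1 at 18 h (Etv4, without DMSO replicate 2 or C59 replicate 3) and were 4 each time at 12 h. The paralog differences ran from 0.13 to 0.18 for Spred1/Spred2, which did not pass without any 1 of 3 libraries, and passed each time for Etv4/Etv5 (-0.52 to -0.39) and Spry2/Spry1 (0.45 to 0.54). Of 1386 values of single members under alternatives, 60 no longer passed and 18 newly passed; 47 changed sign, all of them between -0.13 and 0.08 and passing under neither setting. With DESeq2 size factors every member kept its side of the threshold. At 18 h the biological coefficient of variation was 12.5%, against 5.41% to 7.52% at the other times. The cause of these changes was not tested.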

Other observations

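Beyond the 9 members, 5 genes of the pathway lists passed at 1 h (edgeR quasi-likelihood test, Benjamini-Hochberg adjusted). No member did, and 2.75% of all genes passed. Of 8 FGF ligand genes tested 1 passed higher and 1 lower, and of 14 other ERK response genes 2 passed higher and 1 lower. None of the 5 receptor genes or the 22 genes of the cascade passed. Of 5 blood markers 2 passed higher in C59 at 1 h (summed level 5954 to 8399 against 4483 to 6036 CPM), and their part was not tested. The genes that follow were named after their values were seen. Egr1, an immediate early gene of ERK signaling, was at 3.93, 6.37 and 4.55 CPM in DMSO and 8.32, 9.86 and 9.47 CPM in C59 at 1 h (log2 fold change 0.90 ± 0.16, adjusted p 0.00804), and it also passed higher at 6 h (0.53), 18 h (0.77) and 24 h (0.56). Dusp5, which encodes a nuclear ERK phosphatase, rose from 5.54, 5.20 and 5.30 CPM to 7.92, 7.81 and 8.68 CPM at 1 h (0.61 ± 0.13, adjusted p 0.018) and was lower in C59 at 6 h (-0.96 ± 0.16, adjusted p 0.00104). Dusp7, another ERK phosphatase gene, was at 171, 174 and 182 CPM in DMSO and 139, 131 and 119 CPM in C59 at 1 h (-0.44 ± 0.053, adjusted p 0.000431). Fgf4 was at 3.04, 3.43 and 2.31 CPM in DMSO and 5.15, 4.78 and 4.94 CPM in C59 at 1 h (0.78 ± 0.18, adjusted p 0.0338), the direction opposite to that at 6 h. Fgf10, the FGF ligand of the mesenchyme, was at 27.8, 28.8 and 30.1 CPM in DMSO and 22.8, 22.0 and 23.6 CPM in C59 at 1 h (-0.34 ± 0.069, adjusted p 0.0139; range over the alternatives 0.0067 to 0.154, and not passing without C59 replicate 1 or 2). Egr1 and Dusp7 passed at 1 h under all 14 alternatives. Dusp5 did not without DMSO replicate 2, C59 replicate 1 or C59 replicate 3, or with embryo sex as a covariate (adjusted p 0.0533; range over the alternatives 0.00842 to 0.0745), and Fgf4 did not pass under most of them (range 0.012 to 0.217). With embryo sex as a covariate Egr1 did not pass at 6 h and 24 h (adjusted p 0.232 and 0.0501). The summed Y-linked FPKM was 7.66 and 9.03 in DMSO 1 h replicates 1 and 2. Every other library above 5 had at least 18.8, so the sex covariate is less certain at 1 h.

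Fgfr4 changed direction with time. It was higher in C59 at 6 h and 12 h (log2 fold changes 1.1 and 0.54) and lower at 18 h and 24 h (-0.98 and -0.57, adjusted p 0.00645 and 0.0144), while in the controls it went from 2.22 ± 0.57 CPM at 1 h to 19.7 ± 2.58 CPM at 24 h.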
